A study of Mus musculus with 24 samples.

Results

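*Irg1-/-* and WT bone marrow-derived macrophages (BMDMs) were compared after 24 h of LPS, over all genes counted. The comparison holds 6 samples, 3 of each genotype, chosen by their treatment label out of 24 samples that span 4 treatments in each genotype. WT cells came from purchased C57BL/6N mice and *Irg1-/-* cells from a separate C57BL/6N line lacking *Irg1*, aged 8 to 20 weeks, so the WT animals were not littermates of the knockouts. Marrow of both genotypes was grown for 7 days in 20 ng/mL M-CSF, and the 6 samples received 100 ng/ml LPS for 24 h and were harvested directly. Each sample was a separate culture in the study's methods. The other treatments, used here for the comparison of genotype differences only, were no stimulation (Unstim.), LPS for 3 h alone (LPS 3h) and 24 h of LPS, a rest of 1 h and LPS again for 3 h (LPS 24h->LPS 3h), also with 3 samples per genotype.

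*Irg1*, whose current symbol is *Acod1*, encodes the mitochondrial enzyme that decarboxylates cis-aconitate to itaconate in activated macrophages. Itaconate is known to inhibit succinate dehydrogenase. Derivatives of itaconate such as octyl-itaconate bind KEAP1, the inhibitor of the transcription factor NRF2, whereas direct binding by itaconate itself is less certain. LPS acts through TLR4, which switches on NF-kappaB and AP-1 target genes such as chemokines within hours and, through IRF3 and secreted interferon, a wave of interferon-stimulated genes. By 24 h most of these transcripts are past their peak, and feedback inhibitors such as phosphatases of the MAP kinases are in place.

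The 3 WT LPS 24h libraries held between 7361671 and 10374213 reads counted on genes and the 3 *Irg1-/-* libraries between 12224652 and 20430359. All 3 *Irg1-/-* libraries and WT replicate 1 carried the prefix of pool 1 in their labels, WT replicate 2 that of pool 2 and WT replicate 3 that of pool 4, so pool and genotype were partly confounded. A within-pool value below is therefore the log2 difference between the 3 *Irg1-/-* libraries and WT replicate 1, the only WT library of their pool. WT replicate 3 stood apart. On the first principal component of the 6 libraries, which held 44.7% of the variance, it lay at 93.9 and the other 5 between -30.5 and -2.09, and mitochondrial genes took 0.709% of its gene counts against 1.72% to 2.57% in the others. Levels are given as CPM, the share of a library's gene counts, scaled by edgeR's TMM factors (normalized CPM). All 10 macrophage markers on the list used here were detected and 0 were called different between genotypes by edgeR's quasi-likelihood test (1 with an unadjusted p under 0.05; 0 by DESeq2). Their summed level was 5766 to 9202 normalized CPM in WT and 7699 to 10370 in *Irg1-/-*. Neutrophil markers summed to 76.4 to 232 in WT and 145 to 217 in *Irg1-/-*, and markers of dendritic cells, of lymphocytes and of mast cells each summed to 3.04 or below in every library. Fibroblast markers summed to 319 to 376, osteoclast markers to 96.2 to 157 and erythroid and megakaryocyte markers to 181 to 639 over the 6 libraries. By edgeR, 0 members of any of the 8 marker lists were called.

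Of 11878 genes tested, 71 (0.598%) were past an adjusted p of 0.05 by edgeR's quasi-likelihood test, 12 of them higher (0.101%) and 59 lower (0.497%) in *Irg1-/-*. Besides *Acod1* itself, the lower genes included 6 chemokine genes, 3 antiviral interferon-stimulated genes, the cytokine gene *Il1a*, the prostaglandin synthase gene *Ptgs2*, the growth factor gene *Pdgfb* and the NRF2 targets *Slc7a11*, *Prdx1* and *Sqstm1*. The higher genes included *F13a1*, *Slc39a10*, *Igsf6*, *Il4ra* and *Dab2*. For 67 of the 71, the 3 *Irg1-/-* libraries lay entirely on one side of the 3 WT libraries. Such a separation was common: 892 genes lay higher (7.51%) and 1068 lower (8.99%) in this way, and an exact permutation test of 3 libraries against 3 cannot give a two-sided p under 0.1. The median log2 fold change over all genes tested was -0.01, and 1195 of the 11878 had an unadjusted p under 0.05 by edgeR. In bulk samples such as these, less RNA per cell and fewer cells holding that RNA cannot be told apart.

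The calls depended on single libraries. Without WT replicate 3, 12 genes were called, all of them among the 71, and 70 of the 71 kept their direction, with a median log2 fold change of -1.27 in place of -1.69 over the 59 lower genes. Leaving out *Irg1-/-* replicate 2 or 3 left 12 and 9 of the 71 past the threshold, so the loss of calls was not particular to WT replicate 3. With the library pool as a term, 12 genes were called, again all among the 71. The genes past the threshold whichever of the 6 libraries was left out numbered 7: *Acod1*, *Cxcl10*, *Pdgfb*, *Igf2bp2* and *Kctd12*, which were lower, and *F13a1* and *Slc39a10*, which were higher. Within pool 1, 69 of the 71 had the same direction. Neither count of kept directions is separate support, since 67 of the 71 had no overlap between groups. That lack of overlap fixes the direction within pool 1 and all but fixes it without WT replicate 3.

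**Figure D1:**
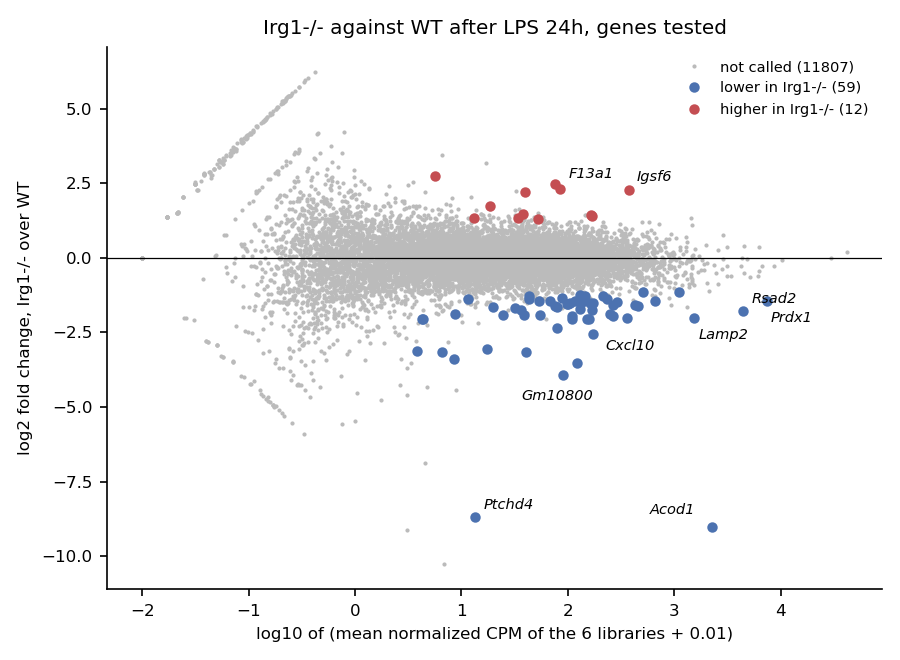
Each point is a gene, with the log10 of the mean normalized CPM of the 6 libraries plus 0.01 on the x axis and the log2 fold change of *Irg1-/-* over WT after LPS 24h on the y axis. The 59 genes called lower are blue, the 12 called higher are red and the genes that were not called are grey, and *Acod1* is at -9.02. All genes tested spanned -10.28 to 6.25, so some genes that were not called lay further from 0 than the called genes.

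*Acod1* (ENSMUSG00000022126.6; chromosome 14 of GRCm38, 103046977 to 103056573, plus strand) was read first, as the check of the genotype labels. It had 3794, 4015 and 5799 normalized CPM in WT replicates 1 to 3 and 11.5, 8.20 and 6.54 in *Irg1-/-* replicates 1 to 3. The lowest WT library thus lay far above the highest *Irg1-/-* library, and 0 libraries went against their label. The log2 fold change was -9.02 (standard error 0.64, adjusted p = 5.85e-11). Of the 13 genes listed for itaconate synthesis and breakdown, which also hold the citrate and dicarboxylate carriers and the succinyl-CoA ligase subunits, only *Acod1* was called.

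The chemokine list showed the most calls of any list. Of 29 members tested, 6 were lower and 0 higher, 23 had a negative log2 fold change, and the median was -0.65 against -0.01 over all genes. Of all genes tested, 0.497% were called lower. *Cxcl10*, an interferon-inducible ligand of CXCR3, had 288, 392 and 209 normalized CPM in WT and 79.3, 35.8 and 38 in *Irg1-/-*. The lowest WT library was thus above the highest *Irg1-/-* library. The log2 fold change was -2.54 (standard error 0.36, adjusted p = 2.55e-04), -2.59 within pool 1 and -2.71 without WT replicate 3 (adjusted p = 3.11e-04, and 1.47e-10 to 0.108 over 16 alternatives). *Cxcl11*, another CXCR3 ligand, had 13.9, 13.3 and 13.7 in WT and 6.49, 2.10 and 2.46 in *Irg1-/-* (log2 fold change -1.89, standard error 0.45, adjusted p = 0.0389).

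*Cxcl2*, a ligand of CXCR2 that attracts neutrophils, had 613, 613 and 823 normalized CPM in WT and 277, 217 and 184 in *Irg1-/-* (log2 fold change -1.60, standard error 0.30, adjusted p = 0.0107). *Ccl4*, a chemokine that attracts monocytes and T cells, had 128, 120 and 115 in WT and 47.7, 35.4 and 31.9 in *Irg1-/-* (log2 fold change -1.66, standard error 0.32, adjusted p = 0.0108). For both genes the groups were separated by more than the range within either. The CCR2 ligands *Ccl2* and *Ccl7*, which recruit monocytes, were lower as well. *Ccl2* had 298, 518 and 371 in WT against 153, 91.1 and 77.2 (log2 fold change -1.88, standard error 0.42, adjusted p = 0.0291), and *Ccl7* had 135, 153 and 94.2 against 67.7, 39.8 and 42.4 (log2 fold change -1.35, standard error 0.30, adjusted p = 0.0274). *Ccl12*, which lies on chromosome 11 like *Ccl2* and *Ccl7*, had a log2 fold change of -1.33 and was not past the threshold (adjusted p = 0.0654). Without WT replicate 3 the list had 3 calls (*Cxcl10*, *Ccl4* and *Ccl7*), and with the pool as a term 2 (*Cxcl10* and *Cxcl2*).

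**Figure D2:**
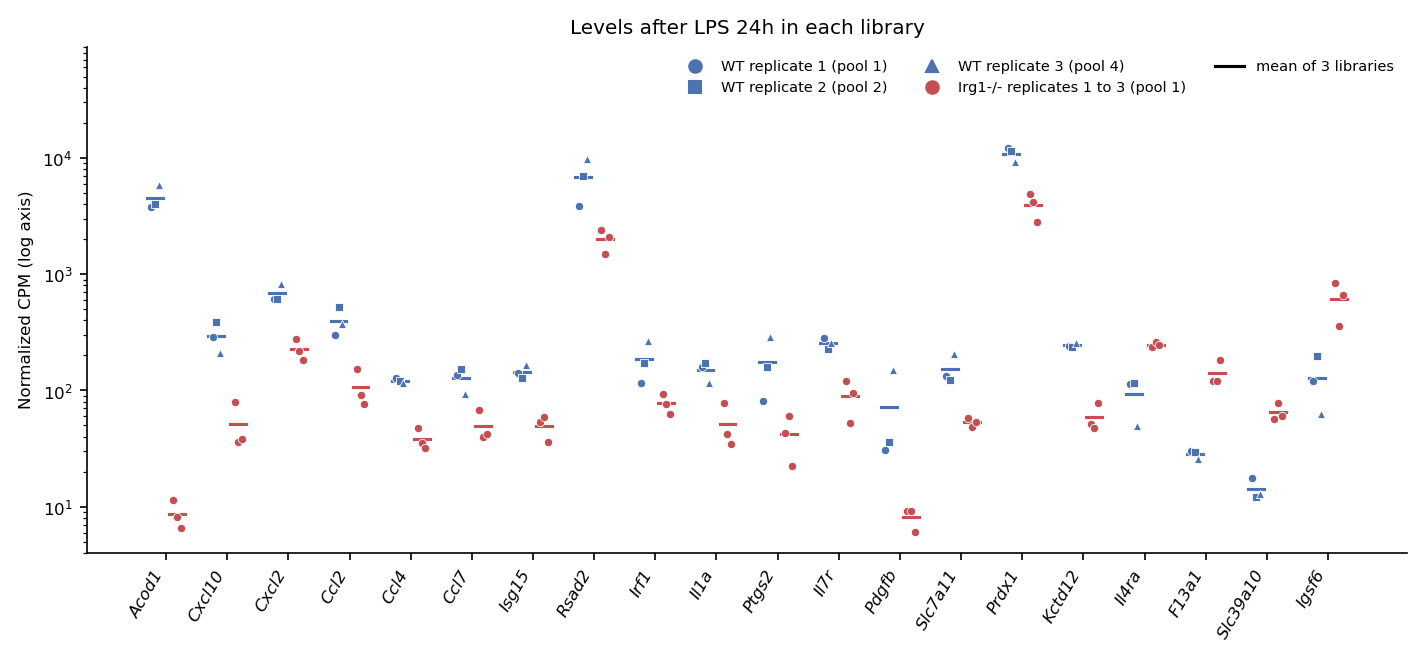
Normalized CPM (log axis) of 20 genes after LPS 24h, with 1 point per library, the WT libraries in blue with a symbol for each pool, the *Irg1-/-* libraries in red and a bar at the mean of 3 libraries. *Cxcl10* lay between 209 and 392 in WT and between 35.8 and 79.3 in *Irg1-/-*, and *Pdgfb* shows WT replicate 3 (triangle) at 150 against 31.0 and 36.1 in the other WT libraries.

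Interferon-stimulated genes were lower in part. Of 45 antiviral genes tested, 3 were lower and 0 higher, 36 had a negative log2 fold change, and the median was -0.32. By group, 8 genes were separated and lower and 0 separated and higher. Of all genes tested, 0.497% were called lower, 8.99% were separated and lower and 7.51% separated and higher. *Isg15*, a ubiquitin-like modifier, had 141, 128 and 166 normalized CPM in WT and 53.9, 59.2 and 36.4 in *Irg1-/-* (log2 fold change -1.54, standard error 0.30, adjusted p = 0.0116; -1.52 within pool 1). *Rsad2*, which encodes viperin, was among the most abundant of the list, with 3867, 7046 and 9752 in WT against 2415, 1491 and 2108 (log2 fold change -1.78, standard error 0.35, adjusted p = 0.0116; -0.98 within pool 1). Its WT libraries differed more than those of *Isg15*. *Cmpk2*, the neighbour of *Rsad2* and a mitochondrial nucleotide kinase, had 337, 587 and 359 against 193, 88.1 and 183 (log2 fold change -1.47, standard error 0.34, adjusted p = 0.0371).

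The transcription factor gene *Irf1* had 116, 173 and 265 normalized CPM in WT and 93.9, 76.0 and 62.8 in *Irg1-/-* (log2 fold change -1.25, standard error 0.29, adjusted p = 0.0314), and it was the only gene called of 16 tested among the interferons, their receptors and the IRFs. None of the 16 guanylate-binding proteins and immunity-related GTPases tested was called by edgeR, and DESeq2 called 1. An unadjusted p under 0.05 by edgeR was reached by 6 of them, and by 1195 of the 11878 genes tested. Of the 16 log2 fold changes, 14 were negative, and the median was -0.71. *Irgm2* had the smallest p of these (log2 fold change -0.91, standard error 0.24, adjusted p = 0.0819). The median of this list within pool 1 was -0.22. Without WT replicate 3, 0 of the antiviral genes and 0 of the IRF list were called by edgeR, and likewise with the pool as a term. The adjusted p of *Isg15* was 0.0720 and 0.0607 in these 2 fits, and 4.81e-05 to 0.379 over 16 alternatives.

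Of 29 interleukin and receptor genes tested, 2 were lower, *Il1a* and *Il7r*, and 1 was higher, *Il4ra*. Over all genes tested, 0.497% were called lower and 0.101% higher. *Il1a*, the gene of IL-1alpha, had 160, 172 and 115 normalized CPM in WT and 77.4, 42.6 and 34.6 in *Irg1-/-* (log2 fold change -1.53, standard error 0.37, adjusted p = 0.0459). *Il7r*, a subunit of the IL-7 and TSLP receptors, had 285, 229 and 256 against 121, 52.9 and 95.9 (log2 fold change -1.51, standard error 0.30, adjusted p = 0.0116; -1.74 within pool 1). *Il4ra*, the shared receptor subunit for IL-4 and IL-13, had 114, 116 and 49.3 against 236, 262 and 245 (log2 fold change 1.41, standard error 0.32, adjusted p = 0.0310). The *Irg1-/-* libraries were close to each other for *Il4ra*, and WT replicate 3 was the lowest of the 6. Leaving out WT replicate 3 ended all 3 calls, at log2 fold changes of -1.66, -1.48 and 1.14 for *Il1a*, *Il7r* and *Il4ra* (adjusted p = 0.113, 0.0564 and 0.258), and their adjusted p-values over 16 alternatives reached 0.581, 0.238 and 1. With the pool as a term *Il4ra* was not called (adjusted p = 0.130).

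Several further cytokine genes and the inflammasome components were not called. *Il1b* had 524, 280 and 234 normalized CPM in WT and 300, 399 and 324 in *Irg1-/-*, which overlap (log2 fold change -0.02, standard error 0.30, adjusted p = 0.996). *Tnf* had 50.5, 41.1 and 35.1 against 23.6, 23.1 and 13.1, which do not overlap (log2 fold change -1.08, standard error 0.34, adjusted p = 0.177). *Il6*, *Il12b* and *Il10* were low, at 1.01 to 4.38, 6.52 to 19.7 and 1.26 to 4.49 normalized CPM over the 6 libraries, with log2 fold changes of -1.03, -0.91 and -0.72 (adjusted p = 0.559, 0.452 and 0.728). The libraries of *Il10* overlapped and those of the other two did not. *Nlrp3*, *Casp1*, *Gsdmd* and *Nos2* had log2 fold changes of -0.14, -0.16, 0.06 and -0.60, all with overlapping libraries. *Il18* and *Pycard*, the gene of the adaptor ASC, had every *Irg1-/-* library above every WT library, with log2 fold changes of 0.89 and 0.60 and adjusted p-values of 0.432 and 0.452. Of 23 inflammasome and pyroptosis genes, 0 were called by edgeR and 1 by DESeq2, where edgeR called 0.598% of all genes tested. That count is near the share over all genes and so says little about the list. An unadjusted p under 0.05 by edgeR was reached by 4 of the 23 and by 1195 of all 11878 genes. Libraries were separated and higher for 5 of the 23 and separated and lower for 1, against 7.51% and 8.99% of all genes. *Txnip* had the smallest p (log2 fold change -1.20, adjusted p = 0.0789, and -0.26 within pool 1).

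Regulators of the LPS response were lower in part too. Of 29 NF-kappaB genes and feedback inhibitors tested, 3 were lower and 0 higher, 13 were separated by group and lower, and the median was -0.37. Over all genes tested, 0.497% were called lower and 8.99% were separated and lower. *Dusp1*, a phosphatase of p38 and JNK, had 232, 258 and 222 normalized CPM in WT and 115, 75.6 and 57.8 in *Irg1-/-* (log2 fold change -1.52, standard error 0.32, adjusted p = 0.0212). *Traf1*, an NF-kappaB target and adaptor of TNF receptors, had 104, 94.4 and 102 against 41.4, 37.7 and 31.0 (log2 fold change -1.45, standard error 0.34, adjusted p = 0.0371). For both, WT libraries were close to each other and far from the *Irg1-/-* libraries. *Dusp5*, a nuclear phosphatase of ERK, had 17.7, 21.8 and 50.2 against 9.53, 10.4 and 8.62 (log2 fold change -1.65, adjusted p = 0.0371; -0.88 within pool 1). The AP-1 and immediate early list had 2 lower genes of 25 tested, *Klf6* (log2 fold change -1.16, standard error 0.28, adjusted p = 0.0433) and *Jund*, whose libraries overlapped. By edgeR, 0 genes of these lists were called without WT replicate 3.

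A few further lower genes came from 4 other lists, each with 1 or 2 calls. *Ptgs2*, which encodes the prostaglandin synthase COX-2, had 81.2, 160 and 286 normalized CPM in WT and 43.4, 60.6 and 22.2 in *Irg1-/-* (log2 fold change -2.06, standard error 0.41, adjusted p = 0.0147; -1.06 within pool 1). *Pdgfb*, a chain of platelet-derived growth factor, had 31.0, 36.1 and 150 against 9.13, 9.25 and 6.12 (log2 fold change -3.15, standard error 0.43, adjusted p = 1.23e-04). WT replicate 3 was far above the other WT libraries for *Pdgfb*, and without it the log2 fold change was -2.02 and still past the threshold (adjusted p = 0.00159, and 1.36e-14 to 0.224 over 16 alternatives). *Gdf15*, a stress-induced cytokine of the TGF-beta family, had 36.9, 68.3 and 77.9 against 23, 13.4 and 11.8 (log2 fold change -1.93, standard error 0.43, adjusted p = 0.0274). *Mmp12*, macrophage elastase, had 214, 189 and 209 against 64.5, 94.4 and 95.4 (log2 fold change -1.27, standard error 0.28, adjusted p = 0.0268), and *Abcg1*, a sterol exporter and LXR target, had 219, 271 and 418 against 138, 124 and 110 (log2 fold change -1.29, standard error 0.27, adjusted p = 0.0212). Of their lists, 1 of 17 prostaglandin and leukotriene genes and 2 of 20 growth factors were thus called. So were 1 of 30 matrix and protease genes and 1 of 26 sterol efflux and LXR genes, against 0.497% of all genes called lower. Without WT replicate 3 only *Pdgfb* was called.

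Of 30 NRF2 targets tested, 3 were lower and 0 higher, 22 had a negative log2 fold change, and the median was -0.49 (-0.70 within pool 1). Over all genes tested, 0.497% were called lower, and the median within pool 1 was -0.03. Lists with 0 calls also had lower medians within pool 1, such as oxidative phosphorylation (-0.37 against -0.04 with all libraries). *Prdx1*, a peroxiredoxin, was among the most abundant genes called, with 12107, 11367 and 9263 normalized CPM in WT and 4859, 4212 and 2840 in *Irg1-/-* (log2 fold change -1.46, standard error 0.32, adjusted p = 0.0274; -1.64 within pool 1). *Slc7a11*, the cystine transporter subunit, had 134, 122 and 205 against 58.6, 48.4 and 53.9 (log2 fold change -1.52, standard error 0.31, adjusted p = 0.0203). *Sqstm1*, the autophagy receptor p62, had 1403, 554 and 976 against 395, 288 and 382 (log2 fold change -1.46, standard error 0.33, adjusted p = 0.0292), so WT replicate 2 was near the *Irg1-/-* libraries. Without WT replicate 3, 0 of the 30 were called by edgeR, although the log2 fold change of *Prdx1* was -1.54, near that with all libraries (adjusted p = 0.0641, and 4.69e-04 to 0.379 over 16 alternatives). *Slc7a11* was past the threshold with the pool as a term.

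Where 0.497% of all genes tested were called lower, the integrated stress response list had 2 lower genes of 30 tested. These were *Slc7a11*, which is on both lists, and *Ppp1r15a*, a subunit of the phosphatase that restores eIF2alpha, whose difference was smaller within pool 1 (log2 fold change -1.37, standard error 0.32, adjusted p = 0.0371; -0.56 within pool 1). Of 23 genes of the unfolded protein and heat shock response, the chaperone gene *Hsph1* was lower (log2 fold change -1.46, standard error 0.35, adjusted p = 0.0468; -0.71 within pool 1). Leaving out WT replicate 3 ended the calls of *Ppp1r15a* and *Hsph1*, at -0.92 and -0.99 (adjusted p = 0.480 and 0.510; up to 1 over 16 alternatives for both).

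For the lists of energy metabolism the counts of calls were near the 0.598% called among all genes tested, and so say little about their members. By edgeR, 0 of 25 genes of the TCA cycle and succinate dehydrogenase, 0 of 68 nuclear subunits of oxidative phosphorylation and 0 of 33 glycolysis and HIF-1 genes were past the threshold. In each of the 3 lists, 2 had an unadjusted p under 0.05, where 1195 of all 11878 genes tested did. DESeq2 called 0, 0 and 1. The median log2 fold changes of the 3 lists were 0.03, -0.04 and -0.16. Within pool 1 they were -0.22, -0.37 and -0.44, against -0.03 over all genes tested. By edgeR, 0 genes were also called among 24 of cholesterol synthesis, 18 around *Nos2*, arginine and tetrahydrobiopterin, 22 Toll-like receptors and adaptors, 15 of MHC class II and co-stimulation, and 28 scavenger, lectin and phagocytic receptors. These had 1, 1, 4, 1 and 4 genes with an unadjusted p under 0.05, and DESeq2 called 0 in each. The same held for 0 of 43 cell cycle genes (8 with an unadjusted p under 0.05; 0 by DESeq2) and 0 of 14 purinergic genes (2; 0). Among 20 genes of the TNF superfamily, 20 of MHC class I processing and 15 of iron handling, edgeR called 0, with 4, 6 and 3 at an unadjusted p under 0.05 and 3, 2 and 2 called by DESeq2.

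**Figure D3:**
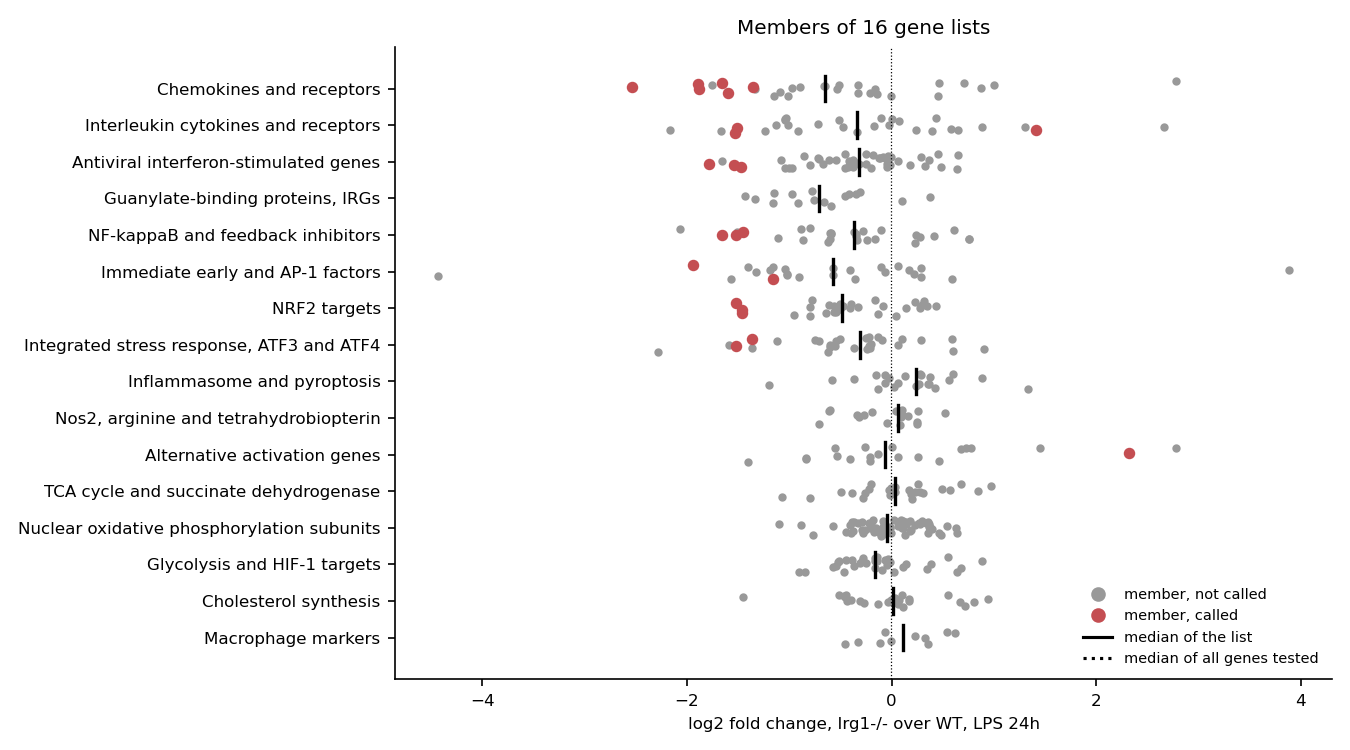
The log2 fold change of *Irg1-/-* over WT after LPS 24h (x axis) for each tested member of 16 gene lists, with called members in red and a bar at the median of the list. The chemokine list has its median at -0.65 and 6 called members, and the lists of the TCA cycle and of oxidative phosphorylation are centred at 0.03 and -0.04 with 0 called.

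Among the 12 genes that were higher, *F13a1* had the smallest p. It encodes the A subunit of coagulation factor XIII, a transglutaminase found in alternatively activated macrophages, and had 29.9, 29.7 and 25.5 normalized CPM in WT and 122, 121 and 182 in *Irg1-/-*. Its log2 fold change was 2.32 (standard error 0.31, adjusted p = 1.09e-04), 2.21 within pool 1 and 2.11 to 2.47 with any single library left out. *F13a1* was the only gene called among 20 tested genes of alternative activation, whose median was -0.06. *Slc39a10*, the zinc importer ZIP10, had 17.5, 12.2 and 12.8 in WT and 56.8, 78.4 and 60.7 in *Irg1-/-* (log2 fold change 2.20, standard error 0.35, adjusted p = 0.00120; 1.87 within pool 1). It was likewise the only gene called among 11 tested metallothioneins and zinc transporters.

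*Igsf6*, an immunoglobulin superfamily member, had 120, 198 and 62.8 normalized CPM in WT and 840, 356 and 659 in *Irg1-/-* (log2 fold change 2.28, standard error 0.49, adjusted p = 0.0268). *Dab2*, an endocytic adaptor, had 129, 85.2 and 53.2 against 299, 199 and 225 (log2 fold change 1.44, standard error 0.32, adjusted p = 0.0274). In both genes the groups did not overlap, and WT replicate 3 was the lowest WT library. *Ssh2*, a phosphatase of cofilin, had 30.1, 23.5 and 37.9 against 64.6, 83.6 and 76.6 (log2 fold change 1.30, standard error 0.28, adjusted p = 0.0268), and *Gcnt1*, a glycosyltransferase of core O-glycans, had 8.77, 5.27 and 11.8 against 20.4, 24.5 and 41.2 (log2 fold change 1.74, standard error 0.38, adjusted p = 0.0268). *Eps8l1*, related to the actin regulator EPS8, had 2.43, 1.70 and 0.29 against 6.83, 15 and 7.48 (log2 fold change 2.74, standard error 0.61, adjusted p = 0.0284). *Fam122a*, *Rcsd1* and *Sdad1* were also higher without overlap, with log2 fold changes of 1.48, 1.35 and 1.33 and within-pool values of 1.26, 1.26 and 1.05. Of these genes, *Gcnt1* and *Ssh2* stayed past the threshold without WT replicate 3 (adjusted p = 0.0447 for both). *Igsf6*, *Dab2*, *Eps8l1*, *Fam122a*, *Rcsd1* and *Sdad1* did not, at adjusted p-values of 0.0829 to 0.314. With the pool as a term, no gene of this paragraph was called. The call of *Cnpy3*, a chaperone of Toll-like receptors, rested on 1 library, *Irg1-/-* replicate 3. It had 30.1 and 31.3 in *Irg1-/-* replicates 1 and 2, 326 in replicate 3 and 12.5 to 32.3 in WT, and without replicate 3 the log2 fold change was 0.44 (adjusted p = 0.921; 2.09e-08 to 1 over 16 alternatives).

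*Kctd12*, an auxiliary subunit of GABA-B receptors, lies 64339 bases before *Acod1* on chromosome 14 (102976581 to 102982637, minus strand). Of 7 tested genes listed around *Acod1*, itself among them, these 2 were called by edgeR, against 0.598% of all genes tested. *Acod1* is the knocked-out gene, so *Kctd12* was the only other call. An unadjusted p under 0.05 by edgeR was reached by 5 of the 7 and by 1195 of all 11878 genes. The log2 fold changes of the list were negative for 5, with a median of -0.75, and reached 1.01. *Kctd12* had 240, 238 and 257 normalized CPM in WT and 51.4, 47.1 and 78.1 in *Irg1-/-*, with the WT libraries nearly equal. The log2 fold change was -2.06 (standard error 0.34, adjusted p = 0.00204), -2.06 within pool 1 and -2.30 to -1.90 with any single library left out. *Igf2bp2*, an RNA-binding protein of the IGF2 mRNA-binding family, kept its call in every such fit as well, with 121, 141 and 257 in WT against 49.4, 29.5 and 56.2 (log2 fold change -1.94, standard error 0.31, adjusted p = 0.00118; -1.47 within pool 1).

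Part of the lower genes rested on the library that stood apart. WT replicate 3 was the highest WT library for 46 of the 59, and for 19 of the 59 it lay more than 2-fold from the nearest WT library. *Lamp2*, a lysosomal membrane protein, had 931 and 1573 normalized CPM in WT replicates 1 and 2 and 4909 in replicate 3, against 579 to 685 in *Irg1-/-*. Its log2 fold change was -2.01 (adjusted p = 0.0328) with all 6 libraries and -0.99 (adjusted p = 0.612) without WT replicate 3, with adjusted p from 3.35e-06 to 1 over 16 alternatives. *Gm10800* had 8.16, 19.8 and 476 in WT and 7.43 to 17.1 in *Irg1-/-*, and *Ptchd4* had 0 in WT replicates 1 and 2, 80.1 in replicate 3 and at most 0.13 in *Irg1-/-*. Both groups of libraries overlap for these 2 genes. Without WT replicate 3 the log2 fold change of *Gm10800* was -0.34, and that of *Ptchd4* changed sign. *Gm10800* and its neighbour *Gm10801* are predicted genes whose reads may be shared with similar sequences elsewhere, so their levels are uncertain.

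The lowest log2 fold changes after *Acod1* lay mostly in genes of this kind. *Nfib*, a transcription factor of the nuclear factor I family, had 4.14, 6.61 and 35.5 normalized CPM in WT and 0.54, 1.33 and 2.46 in *Irg1-/-*, and its log2 fold change of -3.37 was -1.82 without WT replicate 3 and no longer past the threshold. *Gpr157*, a G protein-coupled receptor, had 5.72, 12.5 and 73.7 against 3.40 to 4.35 (log2 fold change -3.04, and -1.27 without that library). *Gse1* had 35.8, 80.7 and 280 against 21.2 to 35 (-2.35 and -1.14), and *Susd6* had 94.1, 127 and 547 against 45.1 to 88.7 (-2.05 and -0.80). In all 4 genes WT replicate 3 was several-fold above the other WT libraries. *Clic5*, an intracellular chloride channel protein, had 6.70, 9.92 and 18.6 against 2.70, 0.28 and 0.93, and its log2 fold change of -3.17 was -2.64 without WT replicate 3, also no longer past the threshold. *Mtfr2* and the matricellular gene *Ccn1*, which reached at most 12.2 and 9.55 normalized CPM in any library, had log2 fold changes of -3.12 and -2.03 with all libraries and -2.35 and -1.70 without that one.

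**Figure D4:**
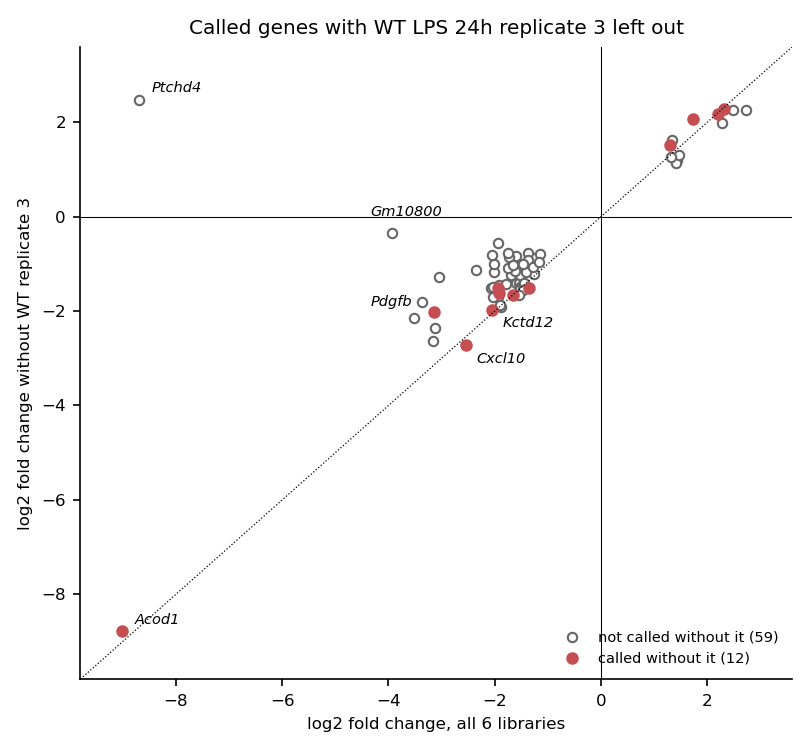
The log2 fold changes of the 71 called genes with all 6 libraries (x axis) and without WT LPS 24h replicate 3 (y axis), where the dotted line marks equal values. The 12 genes still called without that library are red, and open circles above the line on the left are genes whose lower level in *Irg1-/-* shrank when it was left out, with *Ptchd4* turning positive.

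The genotype difference was then set against that in the other treatments, which share no library with LPS 24h. By edgeR, 5 genes (0.0421%) were called between genotypes in Unstim., 1 gene (0.00842%) after LPS 3h, which was *Acod1*, and 14 genes (0.118%) in LPS 24h->LPS 3h. Of the 71 genes called after LPS 24h, 0, 1 and 7 were among these with the same direction. The 7 were *Acod1*, *F13a1*, *Cxcl10*, *Il7r*, *Rsad2*, *Cmpk2* and *Cxcl11*. Over the 59 lower genes, the median log2 fold change was 0.14 in Unstim., -0.11 for LPS 3h and -0.44 for LPS 24h->LPS 3h, with 26, 41 and 39 genes below 0, where 48.7%, 52.0% and 52.1% of all genes tested were below 0. Over the 12 higher genes the medians were -0.02, 0.50 and 0.35.

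The tests of the difference between treatments separated LPS 24h from Unstim. for 25 genes (0.21%), 22 with a lower and 3 with a higher genotype difference after LPS 24h. They included 7 chemokine genes and the interferon-stimulated genes *Rsad2* and *Isg15*. In Unstim., *Cxcl10* was at 5.79 ± 3.42 normalized CPM in WT (SD, n = 3) and at 12.2 ± 1.37 in *Irg1-/-*, against 296 ± 91.6 and 51.0 ± 24.5 after LPS 24h, and its genotype differences were 3.58 apart on the log2 scale (standard error 0.51, adjusted p = 3.40e-04). *Slc39a10* had 43.9 ± 2.83 in WT and 39.7 ± 9.25 in *Irg1-/-* in Unstim., against 14.2 ± 2.91 and 65.3 ± 11.5 after LPS 24h. The WT level was thus lower and the *Irg1-/-* level higher after LPS 24h than in Unstim., a step that was not tested by itself, and the genotype differences were 2.34 apart (standard error 0.48, adjusted p = 0.0204).

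Against LPS 3h, 0 genes (0%) had a different genotype effect by edgeR (smallest adjusted p = 0.0726), with 769 genes at an unadjusted p under 0.05 and 13 called by DESeq2. After LPS 3h the levels of *Cxcl10* were 11449 ± 2008 in WT and 10073 ± 1582 in *Irg1-/-*, and those of *Cxcl2* were 23552 ± 6982 and 18557 ± 5703, so both genes were above their levels after LPS 24h in both genotypes. Against LPS 24h->LPS 3h, 1 gene (0.00842%) differed, *Plagl2*, a zinc finger transcription factor. *Plagl2* had 262, 393 and 1080 normalized CPM in WT after LPS 24h and 134, 112 and 183 in *Irg1-/-* (log2 fold change -2.02, standard error 0.38, adjusted p = 0.0107), against a difference of 0.96 after LPS 24h->LPS 3h. Its test of the difference gave -2.98 (standard error 0.53, adjusted p = 0.0491), and WT replicate 3 held the highest value.

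**Figure D5:**
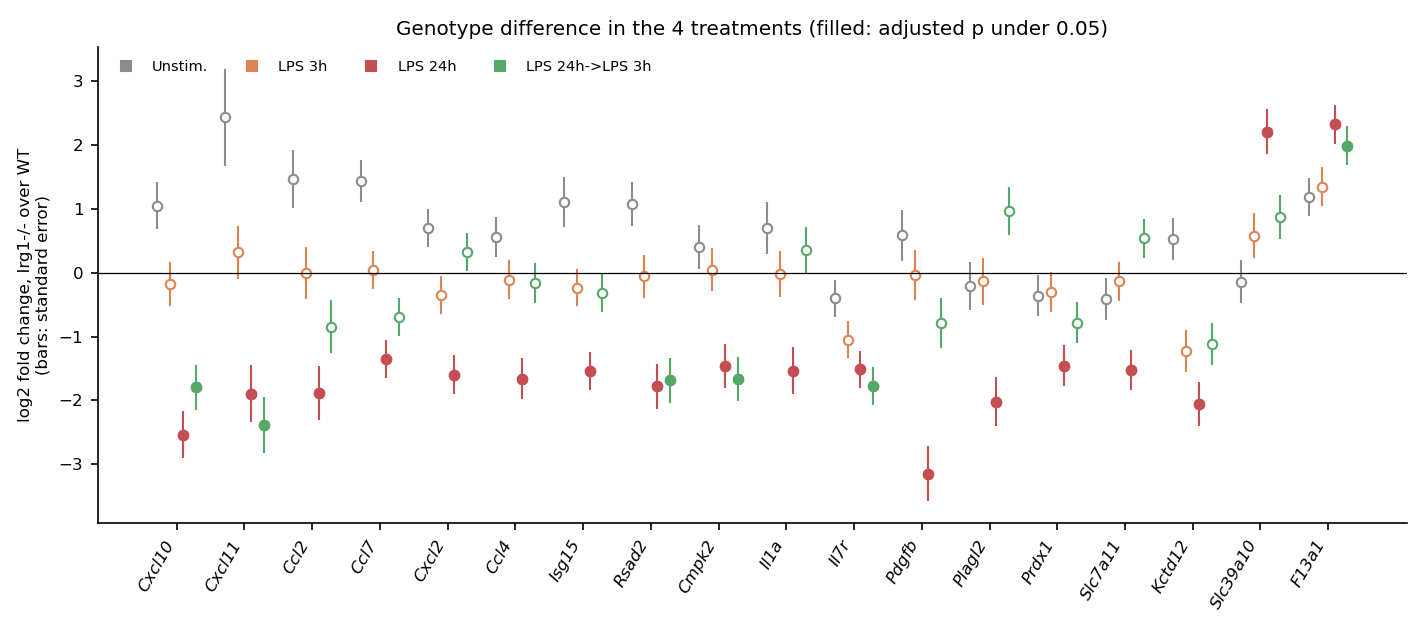
The log2 fold change of *Irg1-/-* over WT with its standard error (y axis) for 18 genes in each of the 4 treatments, filled where the adjusted p was under 0.05. *F13a1* lay above 0 in all 4 treatments, from 1.18 in Unstim. to 2.32 after LPS 24h, whereas *Cxcl10* was at 1.04 in Unstim., -0.18 for LPS 3h, -2.54 for LPS 24h and -1.80 for LPS 24h->LPS 3h.

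*F13a1* had 41.4 ± 13.8, 48.7 ± 6.24, 28.4 ± 2.49 and 33.1 ± 7.12 normalized CPM in WT (SD, n = 3), in the order Unstim., LPS 3h, LPS 24h, LPS 24h->LPS 3h, and 93.9 ± 31.4, 124 ± 15.9, 142 ± 34.9 and 131 ± 19.3 in *Irg1-/-*. Its log2 fold change was 1.18 in Unstim. (adjusted p = 0.251), 1.35 with LPS 3h (adjusted p = 0.218) and 1.99 with LPS 24h->LPS 3h (adjusted p = 0.00113). *Kctd12* was at -1.23 after LPS 3h (adjusted p = 0.318) and -1.11 after LPS 24h->LPS 3h (adjusted p = 0.214) and at 0.53 in Unstim., and its genotype difference after LPS 24h was lower than that in Unstim. by 2.58 (standard error 0.47, adjusted p = 0.00960). *Il7r* was below 0 in each treatment, at -0.40, -1.05, -1.51 and -1.77 in the same order.

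The genes that LPS raises early were examined as a group, since they were defined in other libraries. WT LPS 3h cells had 1874 genes called higher (15.8%) and 1931 called lower (16.3%) than WT Unstim. cells by edgeR. Of the 1874, 32 (1.71%) were lower and 5 (0.267%) higher in *Irg1-/-* after LPS 24h, and their median log2 fold change was -0.194, or -0.124 within pool 1. Of the 587 that rose by over 3 on the log2 scale, 22 (3.75%) were lower and 0 higher, with a median of -0.326, or -0.243 within pool 1. The genes that fell at 3 h had a median of 0.082, with 7 lower (0.363%) and 4 higher (0.207%), and the 8073 genes not called at 3 h had a median of 0.004. Groups lay apart and lower for 17.7% of the early raised genes and for 6.11% of the early lowered genes, against 8.99% of all genes tested. Of the 32, 7 remained called without WT replicate 3, *Acod1* among them.

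Promoters are shown for the 5 called members of the chemokine, antiviral and NRF2 target lists that held a known response motif, because these lists are each tied to such a motif. Called genes outside these lists that held one, such as *Dusp1* and *Klf6*, are not shown. No match was found for the other called members of these lists, *Ccl2*, *Ccl4*, *Ccl7*, *Cxcl11*, *Cmpk2*, *Slc7a11* and *Sqstm1*, so the sequences shown are a selection. Sequences are from RefSeq (GRCm38.p6), 250 bases before the annotated start that lies nearest to the gene's start, read 5′ to 3′ on the gene's strand. Capitals mark matches, on either strand, to the core of the interferon-stimulated response element (GAAA, 2 bases of any kind and GAAA), to the core of the antioxidant response element bound by NRF2 (TGACNNNGC) or to the kappaB motif (GGGA, 2 bases of any kind and TTCC). *Isg15* (chr4:156200819-156201068, minus strand) held the response element 3 times in an overlapping run, *Rsad2* (chr12:26456453-26456702, minus strand) held it once and an antioxidant core once, *Cxcl10* (chr5:92348890-92349139, minus strand) held all 3 motifs, *Cxcl2* (chr5:90903649-90903898, plus strand) held the kappaB motif on both strands at an offset of 1 base, and *Prdx1* (chr4:116685349-116685598, plus strand) held an antioxidant core.
Isg15: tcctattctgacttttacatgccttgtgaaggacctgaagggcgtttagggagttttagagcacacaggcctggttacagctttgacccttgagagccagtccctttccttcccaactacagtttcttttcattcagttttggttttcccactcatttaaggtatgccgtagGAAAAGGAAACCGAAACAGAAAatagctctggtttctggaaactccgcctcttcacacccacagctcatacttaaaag
Rsad2: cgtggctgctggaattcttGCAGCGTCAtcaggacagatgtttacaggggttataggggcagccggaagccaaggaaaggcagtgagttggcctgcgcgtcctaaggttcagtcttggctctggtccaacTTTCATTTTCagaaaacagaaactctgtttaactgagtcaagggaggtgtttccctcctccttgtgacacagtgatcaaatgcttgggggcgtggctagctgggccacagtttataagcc
Cxcl10: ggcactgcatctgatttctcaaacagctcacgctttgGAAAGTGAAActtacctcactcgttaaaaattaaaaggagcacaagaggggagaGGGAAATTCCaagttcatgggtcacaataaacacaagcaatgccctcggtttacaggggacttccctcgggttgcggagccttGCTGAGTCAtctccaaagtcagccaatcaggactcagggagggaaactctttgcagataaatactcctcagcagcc
Cxcl2: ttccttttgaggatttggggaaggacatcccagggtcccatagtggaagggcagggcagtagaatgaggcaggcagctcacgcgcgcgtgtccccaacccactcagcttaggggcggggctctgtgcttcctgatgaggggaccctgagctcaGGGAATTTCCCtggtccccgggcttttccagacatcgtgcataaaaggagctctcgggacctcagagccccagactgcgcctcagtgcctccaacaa
Prdx1: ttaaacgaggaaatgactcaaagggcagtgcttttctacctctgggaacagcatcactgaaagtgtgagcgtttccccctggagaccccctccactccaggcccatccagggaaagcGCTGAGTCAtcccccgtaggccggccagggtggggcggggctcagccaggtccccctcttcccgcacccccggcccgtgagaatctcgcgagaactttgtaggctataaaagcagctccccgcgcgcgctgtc

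Of the 59 lower genes, 49 had a promoter in the RefSeq table, and 4 of these held the core of the interferon-stimulated response element (8.16%, against 2.88% of the 9360 promoters of all genes tested), 13 held the antioxidant core (26.5% against 12.1%) and 3 held the kappaB motif (6.12% against 1.21%). The 4 were *Cxcl10*, *Isg15*, *Rsad2* and *Ppp1r15a*. Of the 11 promoters of higher genes, 1, 2 and 0 held the motifs. The antioxidant core matched promoters of genes on none of the lists for NRF2, such as *Lhx2* and *Gigyf1*, and of the 3 NRF2 targets called only *Prdx1* held it within these 250 bases. A match is a string of letters in this window and was not tied to binding in these cells.

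The study's in vitro work used mice of both sexes, matched by sex. Of the 4 tested Y-linked genes, 0 were called by edgeR or DESeq2, where edgeR called 0.598% of all genes tested. An unadjusted p under 0.05 by edgeR was reached by 1 of the 4, *Eif2s3y*, and by 1195 of all 11878 genes. *Eif2s3y* had 49.7, 89.9 and 92.2 normalized CPM in WT and 37.7, 43.7 and 30.3 in *Irg1-/-*, without overlap. Its log2 fold change was -1.05 (adjusted p = 0.183), and -0.43 within pool 1. *Ddx3y* lay between 79.3 and 273 normalized CPM in the 6 libraries, and its groups overlapped. *Nnt*, a gene that differs between C57BL/6J and C57BL/6N mice, had 18.5, 13.1 and 8.21 normalized CPM in WT and 16.7, 14.9 and 14.7 in *Irg1-/-* (log2 fold change 0.22, adjusted p = 0.901). Because 2 of 3 WT libraries came from other pools than the *Irg1-/-* libraries, pool and genotype cannot be told apart for a gene whose WT replicate 1 lies near the *Irg1-/-* libraries, such as *Gigyf1* (-0.15 within pool 1 against -1.75 in all) and *Jund* (-0.27 against -1.94).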

How the data were processed

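Bulk 3′-end RNA-seq was performed on 24 BMDM samples. Per the labels and the study's methods, the authors made cDNA from mRNA with oligo-dT primers that carry a barcode for each sample, amplified pools of these cDNAs by PCR and used STAR to align the reads to mm10. They deposited whole-number counts per gene, not normalized. The counting program, annotation and strand setting are not given in the sources used here, and no molecular identifiers are described, so count-based precision covers counting error only. The table held 22165 genes, of which 14230 were named by the exact versioned identifier and 7592 by the identifier without its version in GENCODE M21. Genes took 48.0% to 59.4% of each column, and 5 summary lines, which held the rest, were left out. The columns that belong to no sample numbered 0. The pool was read from the prefix in each sample's label.

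Genes were kept by filterByExpr and scaled with TMM factors. Comparisons used edgeR's quasi-likelihood test on 8 group means over all 24 libraries, with Benjamini-Hochberg adjustment and a threshold of 0.05. Every adjusted p is from this test, or from its refit where a library was left out, the pool was added or only the compared groups were fitted. Ranges over alternatives also include DESeq2. The standard error is the log2 fold change divided by the root of F. Within-pool values used log2 CPM with a prior count of 2. Replicates were independent cultures per the study's methods. The labels do not say how many mice or days these cultures came from. Standard errors and p-values thus measure the spread between cultures, and not necessarily that between animals. The test was tried on simulated data with 200 changed genes. Alternatives were DESeq2's size factors and its Wald test, other filters, only the compared groups, the replicate number or the pool as a term, only pool 1, thinned libraries, and each library left out.

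The members and lists were chosen with earlier results of these data known. The rule named *Acod1*; the 15 genes with the highest and the 15 with the lowest log2 fold change among called genes without overlap and averaging 10 counts or more in the group where they were higher; the called members of each list, or the 4 with the smallest p where more were called, or the 2 with the smallest p where none was; up to 3 genes per direction of each test between treatments; list members whose within-pool direction opposed their call; and genes the study measured. *Ccl2*, *Cxcl11*, *Igf2bp2*, *Gigyf1*, *Gm10800*, *Ptchd4* and *Cnpy3*, and in the closing section *Tusc1*, *Btg1*, *Lmna*, *Prkcd* and the genes that differed between treatments beyond the rule, were named after their values were seen. Tests ran in R 4.3.3 with DESeq2 1.42.0, limma 3.58.1 and edgeR 4.0.16, and tables and plots were made with matplotlib 3.10.9 and pandas 2.3.3 under Python 3.11.15.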

Additional observations from a re-analysis of the deposited data

Results flagged for a closer look

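The genotype difference after LPS 24h was tested against that in Unstim. with edgeR's interaction contrast, and 25 genes were past an adjusted p of 0.05. Values are the log2 genotype difference after LPS 24h minus that in Unstim. Among chemokine genes they were -3.58 for *Cxcl10*, -4.41 for *Ccl12*, -2.79 for *Ccl7*, -3.34 for *Ccl2*, -4.32 for *Cxcl11*, -2.29 for *Cxcl2* and -2.21 for *Ccl4*. Among interferon-stimulated genes they were -2.86 for *Rsad2*, -2.64 for *Isg15* and -2.15 for *Ube2l6*, a conjugating enzyme of ISG15. *Acod1* was at -9.22, *Pdgfb* at -3.73, *Ptgs2* at -2.84, *Dusp5* at -2.73 and *Kctd12* at -2.58. *Nfib*, *Gm20594*, *Rhobtb1* and *Tnfsf15* were at -4.21, -2.47, -2.32 and -2.35, and *Slc39a10* and *Sdad1* were at 2.34 and 2.38. Part of these values lay in Unstim., where each chemokine gene named had a genotype difference above 0. *Ccl12* was at 3.07 and *Cxcl11* at 2.43 in Unstim., against -1.33 and -1.89 after LPS 24h. *Ccl12* had only 0.20 normalized CPM in WT Unstim. and 2.07 in *Irg1-/-* Unstim. *Tnfsf15* was at 2.27 in Unstim. and at -0.08 after LPS 24h.

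*Lhx2* (-6.71), *Pnp2* (-6.60), *Cldn12* (-7.72) and *Pilrb1* (6.60) also differed. *Lhx2* and *Pnp2* had 0 normalized CPM in WT Unstim. and 0.16 and 0.68 in *Irg1-/-* Unstim., and *Pilrb1* had 0.84 and 0, so these fitted values depend on the prior count and are not bounds. *Cldn12* had 1.19 in WT Unstim. and 102 in *Irg1-/-* Unstim., against 1.26 and 0.51 after LPS 24h. *Ccl12*, *Pnp2*, *Cldn12* and *Tnfsf15* were called higher in *Irg1-/-* in Unstim. itself. *Plagl2* differed between LPS 24h and LPS 24h->LPS 3h by -2.98. All 6 Unstim. libraries carried the prefix of pool 4, so for these tests treatment and pool cannot be fully told apart. Groups of 3 were not tested for outlying libraries.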

How the results depend on the processing

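With 3 libraries per group and unequal pools, calls depended on the fit. The 71 calls became 67 with DESeq2's size factors, 73 with genes averaging 10 counts or more, 68 with TMM factors that ignored the 20 most abundant genes and 65 with thinned libraries, and 215 with DESeq2's Wald test, 246 without a filter, 3 with only the compared groups, 12 with the pool as a term and 5 with only pool 1. Leaving out 1 library gave 9 to 165 calls: 165 without WT replicate 1, 59 without WT replicate 2, 12 without WT replicate 3, and 30, 12 and 9 without *Irg1-/-* replicates 1, 2 and 3. The replicate block gave 67 calls, 59 of them among the 71. Same-numbered LPS 24h libraries of the 2 genotypes had deviations correlated at 0.135, 0.053 and 0.287, so the numbers were not taken as pairs; WT replicate 1 correlated best with *Irg1-/-* replicate 2 (0.195), and WT replicates 2 and 3 with their own numbers.

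Against Unstim., 25 genes became 89 with DESeq2's Wald test, 112 without a filter, 13 with only the compared groups and 7 to 45 with 1 library left out. Against LPS 3h, 0 became 13, 78 without a filter, and 0 to 1. Against LPS 24h->LPS 3h, 1 became 55 with DESeq2's Wald test, 170 without a filter, 7 with the pool as a term, 0 to 25 with 1 library left out, and 0 with DESeq2's size factors, the stricter filter, only the compared groups, the replicate block, or TMM factors that ignored the top genes. For these 0 counts by edgeR, the fit reported had 1029 genes at an unadjusted p under 0.05. The count for LPS 3h against Unstim. in WT stayed within 1.5 times, at 3151 to 3329 with 1 library left out. The cause of these changes was not tested.

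For refitted values of named genes, 1138 kept direction and side of the threshold, 328 lost the threshold, 32 gained it and 18 reversed. The reversals were in genes that were not called. With only pool 1, *Tnfrsf14* was at 0.19, *Idi1* at 0.39, *Ddx3y* at 0.36, *Nnt* at -0.21, *Casp1* at 0.22 and *Gsdmd* at -0.23. *Il1b* was at 0.0223 with only the compared groups, at 0.0266 under the replicate block and at -0.201 to 0.394 with 1 library left out. *Nlrp3* was at 0.22 with the pool as a term, and *Gsdmd* at -0.00920 with that term and -0.00703 with thinned libraries. With 1 library left out, *Nlrp3* ranged from -0.331 to 0.0323, *Casp1* from -0.420 to 0.208 and *Gsdmd* from -0.153 to 0.271.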

Other observations

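Other genes called lower belonged to none of the lists described. *Tusc1* had 29.6, 34.9 and 53.3 normalized CPM in WT and 12.2, 10.1 and 8.71 in *Irg1-/-* (log2 fold change -1.92, standard error 0.33, adjusted p = 0.00304), and it stayed past the threshold without WT replicate 3 and with the pool as a term. *Btg1*, an antiproliferative regulator of mRNA deadenylation, had 303, 253 and 629 against 139, 159 and 99.9 (log2 fold change -1.57, adjusted p = 0.0147). *Lmna*, which encodes lamin A and C, had 83.0, 87.5 and 175 against 37.0, 41.2 and 34.9 (log2 fold change -1.61, adjusted p = 0.0274). *Prkcd*, a protein kinase C isoform, had 529, 571 and 983 against 322, 344 and 275 (log2 fold change -1.15, adjusted p = 0.0314). In the last 3 genes WT replicate 3 was the highest library.

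Among lists without a call by edgeR, some members had separated libraries but missed the threshold. *Psme2*, a subunit of the proteasome activator PA28, had 135, 177 and 138 normalized CPM in WT and 72.9, 70.8 and 56.7 in *Irg1-/-* (log2 fold change -1.17, adjusted p = 0.0559; -1.03 within pool 1). *Tnfrsf1b*, the gene of TNF receptor 2, had a log2 fold change of -0.96 (adjusted p = 0.133), and *Slc40a1*, the iron exporter ferroportin, one of -0.87 (adjusted p = 0.177). *Nlrp1b*, an inflammasome sensor, had 10.2, 11.3 and 16.4 against 28.4, 31.9 and 35.2 (log2 fold change 1.33, adjusted p = 0.311).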
